A study of Mus musculus with 7 samples.

Results

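The enzymes and the transporter that form, move and break down adenosine and related purines were followed in cultures of mouse cortical neurons. Some cultures carried a control short hairpin (sh)RNA and others were not transduced. The set comprises 9 genes out of 18093 named on the array: *Nt5e*, *Slc29a1*, *Ada*, *Adk*, *Ampd2*, *Ampd3*, *Pnp*, *Hprt* and *Xdh*. They were picked by function, with earlier results of these arrays known. Affymetrix arrays read each transcript with groups of short probes called probe sets. Every probe set annotated to a single one of the 9 genes was taken, names ending in _x_at (probes that may bind several transcripts) were dropped, and a probe set was kept if it reached an intensity of 50 on at least 1 array. That level is the measured value that chose the probe sets. Of 17 probe sets naming 1 of the genes, 2 were dropped for their names and 6 stayed under 50 on every array, which left 9 probe sets of 8 genes among 22748 tested probe sets of 12315 genes.

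The neurons came from the cortex of C57/Bl6J embryos of embryonic day 16 and were harvested at 16 days in vitro. The luciferase group (4 arrays, replicates 1 to 4) received a lentivirus in which the human H1 promoter drives an shRNA against luciferase, a gene that mice lack, at 2 days in vitro for 6 hours and at a multiplicity of infection of 3, with RNA taken 14 days later. The untransduced group (3 arrays, replicates 5 to 7, called naïve or blank in the labels) came from the same kind of culture without virus, and a further sample of it had been removed after quality control. The hairpin has no target in the mouse, so no targeted gene can check the labels. The comparison asks which transcripts differ between cultures with a control hairpin and cultures without virus. It cannot tell the hairpin from the virus, and bulk RNA does not assign a change to a cell type. The methods describe quadruplicate cultures but name no separate litters. Each p-value below therefore refers to the spread among these 7 samples, and that spread may be technical.

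Adenosine is a product of ATP breakdown that damps neuronal firing through receptors at the cell surface. Outside the cell, the ecto-enzyme CD73, encoded by *Nt5e*, makes it from AMP. The equilibrative nucleoside transporter ENT1, encoded by *Slc29a1*, lets it cross the membrane. Inside, adenosine kinase (*Adk*) returns it to AMP, while adenosine deaminase (*Ada*) turns it into inosine. Purine nucleoside phosphorylase (*Pnp*) splits inosine and guanosine into bases, which hypoxanthine-guanine phosphoribosyltransferase (*Hprt*) recycles and xanthine dehydrogenase (*Xdh*) oxidises toward uric acid. The AMP deaminases (*Ampd2*, *Ampd3*) turn AMP into IMP directly. In the brain, *Adk* is known as an enzyme of astrocytes above all.

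*Ada*, *Slc29a1* and *Pnp* were higher in luciferase cultures than in untransduced cultures, and the other tested probe sets did not pass the test. The changes on the log2 scale were 1.51 for *Ada*, 0.83 for *Slc29a1* and 0.67 for *Pnp*. In all 3 genes every luciferase array lay above every untransduced array. Of the 9 tested probe sets 3 passed at an adjusted p of 0.05, against 24.5% of all tested probe sets. All 3 were higher, where 16.2% of all tested probe sets were, and 0 were lower, where 8.26% were (limma, with 0 lower also at an unadjusted p of 0.05). The same 3 also reached a 1.5-fold change, which 4.19% of all tested probe sets did (2.90% higher and 1.29% lower). Groups that did not overlap were seen in 3 of the 9, against 34.8% of all tested probe sets (22.5% higher and 12.3% lower). The median log2 change was 0.25 over the 9 probe sets and 0.056 over all tested probe sets. With 9 probe sets of genes picked with results known, these counts describe the set and carry no test of it.

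For *Ada* and *Pnp*, RefSeq (build GRCm38.p6) lists a single transcript start, and the 250 bases before it are shown because both genes rose. The same stretch of *Hprt*, the salvage enzyme next to *Pnp* in the pathway, which also has a single start and did not pass the test, is set beside them. Capitals mark the letters GGGCGG or their reverse complement, the core of the GC box. Each sequence runs 5′ to 3′ on the strand of the gene.
*Ada* (chr2:163750240-163750489, minus strand): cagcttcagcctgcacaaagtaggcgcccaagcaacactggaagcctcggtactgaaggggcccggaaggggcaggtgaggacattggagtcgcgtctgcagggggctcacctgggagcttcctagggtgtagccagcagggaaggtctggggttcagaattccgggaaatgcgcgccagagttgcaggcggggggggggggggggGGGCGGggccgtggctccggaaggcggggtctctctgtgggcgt
*Pnp* (chr14:50944053-50944302, plus strand): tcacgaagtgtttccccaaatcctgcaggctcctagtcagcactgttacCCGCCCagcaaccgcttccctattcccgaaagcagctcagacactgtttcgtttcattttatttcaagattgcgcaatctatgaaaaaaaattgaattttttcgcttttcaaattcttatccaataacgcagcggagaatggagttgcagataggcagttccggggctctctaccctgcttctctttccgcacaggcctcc
*Hprt* (chrX:52987828-52988077, plus strand): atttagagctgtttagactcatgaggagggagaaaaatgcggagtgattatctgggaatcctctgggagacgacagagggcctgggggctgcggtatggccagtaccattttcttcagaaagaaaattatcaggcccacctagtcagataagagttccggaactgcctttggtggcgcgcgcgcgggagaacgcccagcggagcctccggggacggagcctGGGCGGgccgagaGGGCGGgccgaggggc
The G and C content was 67.2% for *Ada*, 46.8% for *Pnp* and 59.6% for *Hprt*, with a median of 52.4% over 32851 promoters of the same length. The GC box letters occurred 1 time in *Ada*, 1 time in *Pnp* and 2 times in *Hprt*, and 32.7% of all promoters held them. CCAAT (either strand) occurred 1 time in *Ada* and 1 time in *Pnp* and was not found in *Hprt*, and 33.8% of all promoters held it. Of stretches not shown, those before the 2 starts of *Adk*, which did not pass, held CCAAT 2 times and 1 time. The stretch before the single start of *Nt5e*, which did not pass either, held none. The presence of CCAAT is therefore not read as tied to the rise. The 3 stretches held none of the other motifs searched on both strands. These were TATAAA (the TATA box, in 12.4% of all promoters) and CACGTG (1 form of the E-box, in 6.02%). TGACGTCA (the cAMP response element, in 1.55%) and TGACTCA (the AP-1 site, in 4.46%) were the others. None of the motifs contains another. A match gives letters in a window and no data on binding. *Slc29a1* has 8 listed starts, so none of its stretches is shown.

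The probe sets of *Nt5e*, the ecto-enzyme that makes adenosine, had log2 changes of opposite sign, and neither passed. The brighter probe set read 76.2, 68.7, 71.4 and 68.0 on luciferase arrays 1 to 4 and 77.3, 80.2 and 74.8 on untransduced arrays 5 to 7, with luciferase replicate 1 inside the untransduced range. Its log2 change was -0.12 (95% interval -0.29 to 0.040, adjusted p = 0.24 from limma). The dimmer probe set read 59.1, 42.9, 43.4 and 36.5 on luciferase arrays 1 to 4 and 33.8, 30.1 and 37.0 on untransduced arrays 5 to 7. It entered the test through luciferase replicate 1 alone, the only one of 7 arrays at 50 or more, which makes it the probe set just inside the level. Its log2 change was 0.42 (95% interval 0.084 to 0.75, adjusted p = 0.068 from limma). Since it was kept only through the group where it was higher, neither this value nor its passes without luciferase replicate 4 (0.52, adjusted p = 0.036 from limma) and with array weights (0.44, adjusted p = 0.018 from limma) are read as a change. The remaining *Nt5e* probe set was at 29.3 to 33.2, the highest of the 6 probe sets that stayed under the level.

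*Slc29a1*, the transporter of adenosine across the membrane, was higher in luciferase cultures. Its probe set read 146.1, 131.1, 139.5 and 182.9 on luciferase arrays 1 to 4 and 80.2, 85.9 and 84.3 on untransduced arrays 5 to 7. Luciferase replicate 4 was the highest, and the untransduced arrays lay close together. The level was 149.9 ± 22.8 (SD, n = 4) against 83.5 ± 2.92 (SD, n = 3). This is 1.78-fold (95% interval 1.499 to 2.12), and on the log2 scale 0.83 with a standard error of 0.11 (limma, adjusted p = 0.0015). Without luciferase replicate 4 the log2 change was 0.73 (adjusted p = 0.0016 from limma).

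*Ada*, the enzyme that turns adenosine into inosine, had the largest change of the 9 probe sets. Its tested probe set read 166.4, 131.8, 127.5 and 137.3 on luciferase arrays 1 to 4 and 53.8, 45.0 and 49.0 on untransduced arrays 5 to 7. All luciferase arrays stood well above the level of 50, while only 1 of the 3 untransduced arrays reached it. The means were 140.8 ± 17.6 (SD, n = 4) and 49.3 ± 4.4 (SD, n = 3), and the log2 change of 1.51 had a standard error of 0.11 (limma, adjusted p = 9.8e-05). The 95% interval of the log2 change ran from 1.27 to 1.75, and the exact permutation test gave p = 0.029 (two-sided, the smallest that 4 arrays against 3 allow). The untransduced mean lies at the level of 50, so the size of the change rests on low values, and on the log2(value + 16) scale it was 1.26 (adjusted p = 4.4e-05 from limma). *Ada* dropped out of the test where a probe set had to reach 50 on all 7 arrays.

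**Figure D1:**
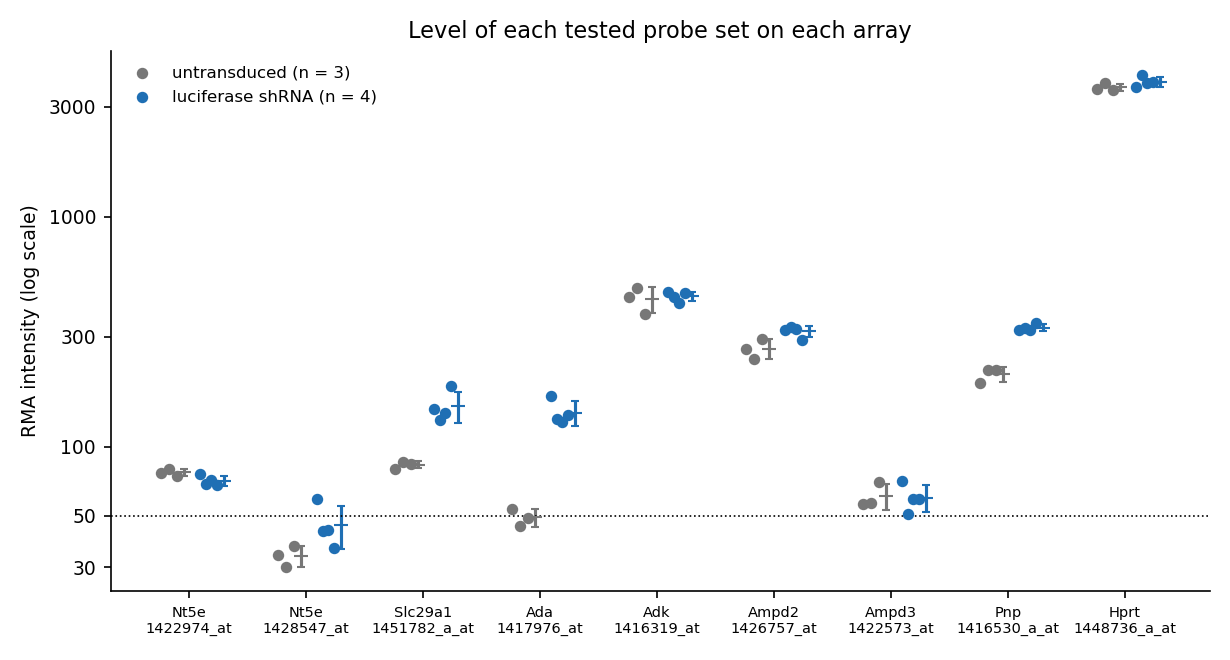
Level of the 9 tested probe sets on each array, as RMA intensity on a log axis, with untransduced arrays in grey (n = 3) and luciferase arrays in blue (n = 4); each point is 1 array, bars show mean ± SD, and the dotted line is the level of 50. The blue and grey points are fully apart in *Slc29a1*, *Ada* and *Pnp*, and the untransduced points of *Ada* lie on the dotted line, at 45.0 to 53.8.

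*Adk*, the enzyme that competes with adenosine deaminase for adenosine, did not pass. The tested *Adk* probe set read 468.4, 447.3, 422.6 and 463.7 on luciferase arrays 1 to 4 and 447.6, 491.5 and 378.5 on untransduced arrays 5 to 7, so the luciferase arrays lay inside the untransduced range. The log2 change was 0.044 (adjusted p = 0.76 from limma), and its 95% interval, from -0.17 to 0.26, leaves out a 1.5-fold change in either direction. Its sign turned under 4 of 16 alternatives (from -0.059 to 0.13), with quantile normalization and median centring among them. The *Adk* probe set dropped for its name differed by 0.15 on the log2 scale (limma, adjusted p = 0.30) in a fit that kept such probe sets. The remaining 4 *Adk* probe sets stayed between 9.05 and 26.2 on all arrays and were not tested.

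Both AMP deaminases had changes that did not pass. *Ampd2* read 321.6, 330.1, 325.1 and 291.4 on luciferase arrays 1 to 4 and 266.4, 241.5 and 293.0 on untransduced arrays 5 to 7. Luciferase replicate 4 lay below untransduced replicate 7, and the other arrays were apart. The log2 change was 0.25 (95% interval 0.055 to 0.45, adjusted p = 0.063 from limma). It passed without untransduced replicate 7 (0.32, adjusted p = 0.022 from limma) and with array weights (0.28, adjusted p = 0.0089 from limma). The *Ampd2* probe set dropped for its name differed by 0.075 on the log2 scale (limma, adjusted p = 0.73) where such names were kept. *Ampd3* lay between 51.1 and 70.7 on all arrays, close above the level of 50, with a log2 change of -0.029 (95% interval -0.30 to 0.24, adjusted p = 0.88 from limma). Its sign turned without luciferase replicate 2, without untransduced replicate 7 and with array weights (0.046, 0.075 and 0.060).

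*Pnp*, which acts on the inosine that adenosine deaminase makes, had the smallest standard error of the 3 genes that rose. The *Pnp* probe set read 321.2, 328.7, 320.2 and 344.1 on luciferase arrays 1 to 4 and 189.5, 216.2 and 214.5 on untransduced arrays 5 to 7. The lowest luciferase array stood clear of the highest untransduced one. The level was 328.5 ± 11.04 (SD, n = 4) against 206.7 ± 14.9 (SD, n = 3), or 1.59-fold (95% interval 1.41 to 1.79), with a log2 change of 0.67 and a standard error of 0.076 (limma, adjusted p = 7.5e-04). After quantile normalization, and after centring the arrays on their medians, the change was 0.57 on the log2 scale, just under 1.5-fold, and it still passed (adjusted p = 0.0015 and 0.0016 from limma). A further probe set names both *Pnp* and its paralog *Pnp2* and was not used. How far the tested probe set also reads *Pnp2* was not tested.

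*Hprt*, often used as a reference gene, was read at 3659, 4106, 3815 and 3844 on luciferase arrays 1 to 4 and at 3597, 3799 and 3535 on untransduced arrays 5 to 7. The groups overlapped. The log2 change was 0.081 (95% interval -0.081 to 0.24, adjusted p = 0.44 from limma), and it was -0.015 after median centring. *Xdh*, which oxidises hypoxanthine and xanthine, was at 15.1 to 22.9 on all 7 arrays and was not tested.

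**Figure D2:**
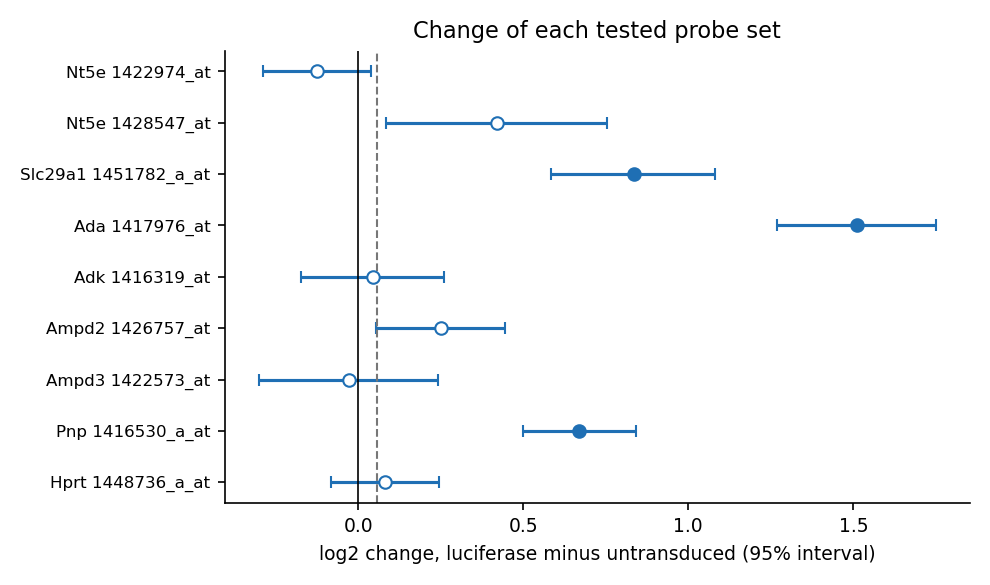
Log2 change (luciferase minus untransduced) of the 9 tested probe sets with its 95% interval from limma; filled points passed at an adjusted p of 0.05, open points did not, and the dashed line is the median of all tested probe sets, 0.056. The filled points of *Ada*, *Slc29a1* and *Pnp* lie at 1.51, 0.83 and 0.67, and the intervals of *Adk*, *Hprt* and *Ampd3* include 0.

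**Figure D3:**
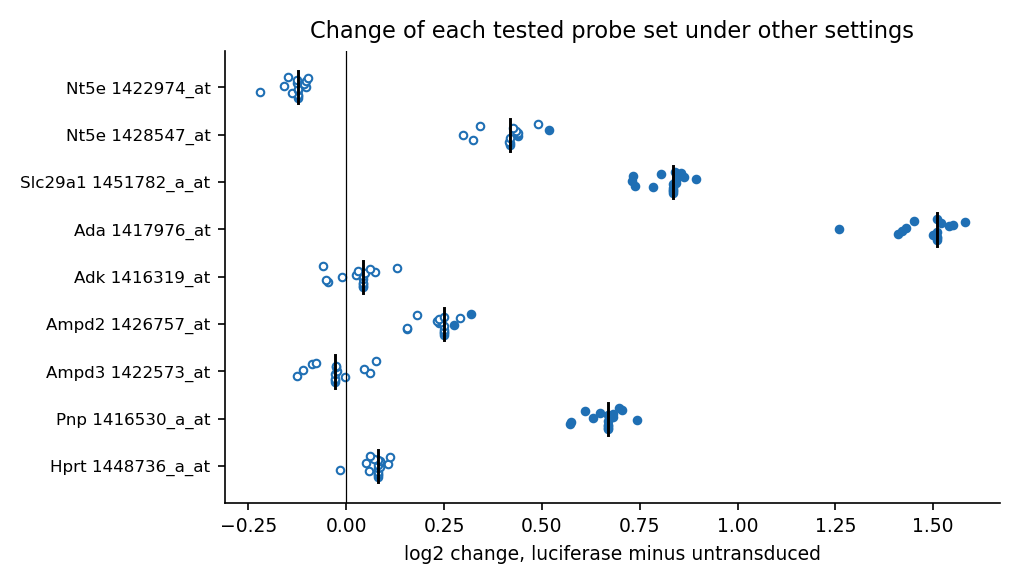
Log2 change of each tested probe set in the main fit (black bar) and under each alternative that kept it (points; filled where the adjusted p was at most 0.05). *Ada*, *Slc29a1* and *Pnp* passed under every alternative that tested them, with ranges from 1.26 to 1.58, from 0.73 to 0.89 and from 0.57 to 0.74. In some of these *Ada* and *Slc29a1* were kept only through luciferase arrays, where they were higher.

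The rest of purine metabolism was read from 8 lists of 85 genes, of which 50 genes were tested, each by its probe set of highest mean. The test passed 12 genes as higher and 3 as lower and did not pass 35, set against the shares of all genes read this way (25.4% passed, 16.9% higher and 8.55% lower), and the median log2 change was 0.11 against 0.057 over all genes. The number higher ranged from 4 without luciferase replicate 2 or untransduced replicate 5 to 15 without untransduced replicate 7. Leaving out luciferase replicate 1 gave 6, replicate 3 gave 7, and replicate 4 or untransduced replicate 6 gave 5. The number was thus not stable when 1 array was left out. Over all tested probe sets the number higher, 3688 on all arrays, ranged from 2022 to 4879 in the same way. What causes these differences was not tested. *Prps2*, *Adsl*, *Adss*, *Ak3* and *Panx2* passed under every alternative that tested them, and the other purine genes named below did not. Where a probe set had to reach 100 on 1 array, *Panx2* was kept only through untransduced replicate 7, in the group where it was higher. That pass is not read as support.

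In the synthesis of purines from small precursors, *Prps2* and *Adsl* were higher and *Adss* was lower. *Prps2*, which makes the activated ribose that *Hprt* and *Aprt* also consume, rose from 687.4 ± 58.8 (SD, n = 3) to 1048 ± 50.2 (SD, n = 4), 0.61 on the log2 scale (limma, adjusted p = 0.0016). *Adsl*, adenylosuccinate lyase, rose from 267.2 ± 18.6 (SD, n = 3) to 376.6 ± 14.7 (SD, n = 4), a change of 0.50 (adjusted p = 0.0030 from limma). *Adss*, adenylosuccinate synthetase, which supplies the lyase on the way from IMP to AMP, fell from 1417 ± 76.7 (SD, n = 3) to 982.3 ± 23.4 (SD, n = 4), a change of -0.53 (adjusted p = 0.0016 from limma). In all, the test passed 4 of the 12 genes of synthesis as higher and 1 as lower, where 16.9% and 8.55% of all genes were.

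In other salvage and breakdown, 2 of 11 tested genes were higher, where 16.9% of all genes were, and 9 did not pass. *Aprt*, which recycles adenine, changed by 0.22 on the log2 scale (limma, adjusted p = 0.042), and *Mtap*, which frees adenine from a by-product of polyamine synthesis, by 0.35 (limma, adjusted p = 0.046). The other 3 probe sets of *Mtap* all passed, with changes from 0.50 to 0.80. *Gda*, among the 9, did not pass by its brightest probe set (0.14, adjusted p = 0.19 from limma). Its other 2 probe sets passed, with changes of 0.33 and 0.76. Nucleotidases turn nucleotides into nucleosides inside the cell. Of 5 tested, *Nt5c* (0.33, adjusted p = 0.022 from limma) and *Nt5c2* (0.30, adjusted p = 0.038 from limma) were higher, beside the same 16.9% of all genes. *Nt5c2* did not pass with any 1 of the 7 arrays left out, and its luciferase replicate 1 stood apart, at 355.4 against 286.5 to 290.9 on the other luciferase arrays.

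The 3 other nucleoside transporters tested, *Slc29a2*, *Slc29a3* and *Slc29a4*, had log2 changes of 0.12, 0.065 and 0.19 and did not pass (adjusted p from 0.31 to 0.66 from limma). Of 7 tested kinases that interconvert adenine and guanine nucleotides, *Ak3*, *Guk1* and *Nme2* were higher and 4 did not pass. Over all genes 16.9% were higher and 8.55% lower. The 3 changes were 0.37, 0.26 and 0.23 on the log2 scale (adjusted p = 0.010, 0.034 and 0.045 from limma). *Ak4*, among the 4, changed by -0.059. Of its 3 other probe sets 1 passed, and the changes of all 3 ran from -0.26 to -0.13. Outside the cell, *Panx1*, a channel that can release ATP, was higher by 0.30 (adjusted p = 0.019 from limma), and its relative *Panx2* was lower, with a change of -0.72 (adjusted p = 0.012 from limma). The other 6 tested genes of that list did not pass. The *Panx2* level was 55.8 ± 7.94 (SD, n = 4) against 92.7 ± 21.98 (SD, n = 3).

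Receptors could be followed only in part. Of the 4 adenosine receptors, *Adora3* was under 50 on every array, and the other receptors were not analysed here. Of 14 P2 receptors, which sense ATP and related nucleotides, 4 were tested. *P2rx5*, an ion channel opened by ATP, was lower, with a change of -0.36 (adjusted p = 0.049 from limma) at a level of 39.1 ± 3.26 (SD, n = 4) against 50.5 ± 7.87 (SD, n = 3), and its groups overlapped. All 4 luciferase arrays were under 50, so *P2rx5* entered the test only through the group where it was high, which favours a call as lower. The other P2 receptors tested did not pass.

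**Figure D4:**
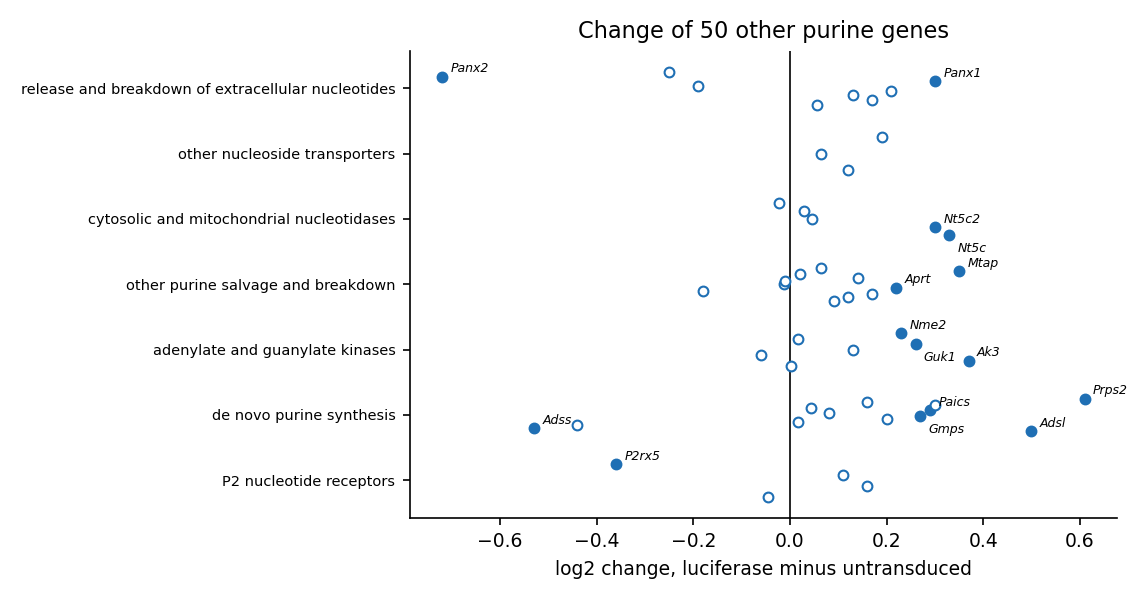
Log2 change (luciferase minus untransduced) of the 50 tested genes of 7 lists of purine metabolism, each by its probe set of highest mean; filled, named points passed at an adjusted p of 0.05. The filled points run from -0.72 (*Panx2*) to 0.61 (*Prps2*), and the *Adss* and *Adsl* points lie on opposite sides of 0.

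The cultures held several cell types, and bulk RNA cannot tell more cells of a type from more RNA per cell. Of all genes read by 1 probe set each, 16.9% were higher and 8.55% lower, and the marker counts stand beside these shares. Of 8 neuronal markers, all tested, 1 was higher and 7 did not pass, with a summed level of 33454 to 35153 on luciferase and 31071 to 33799 on untransduced arrays. The higher one, *Slc17a7*, had overlapping groups. *Rbfox3* and *Map2*, among the 7, each had 1 other probe set that passed as higher, with other changes up to 0.35 and 0.47. No other probe set of a neuronal marker passed as lower. *Snap25*, a vesicle fusion protein and the neuronal marker of highest level, was read at 8813 ± 267 (SD, n = 4) in luciferase and 8409 ± 315 (SD, n = 3) in untransduced cultures (log2 difference 0.068, limma, adjusted p = 0.49, and -0.028 after median centring). Of 10 astrocyte markers, all tested, 6 were higher and 4 did not pass, and their summed level was 31102 to 33801 on luciferase arrays and 23901 to 26364 on untransduced arrays. Among them *Gfap*, *Aldh1l1* and *Aqp4*, named here after their values were seen, were higher by 1.2, 0.86 and 0.82 on the log2 scale (limma, adjusted p = 6.0e-04, 2.4e-04 and 0.0013), and *Aldoc*, the astrocyte marker of highest level, had a change of 0.24 (adjusted p = 0.081 from limma). Of the 2 other *Aqp4* probe sets, with changes of 0.19 and 0.96, 1 passed. The probe sets of *Gfap*, *Aldh1l1* and *Aqp4* read here passed under each alternative. *Slc1a3* and *Glul*, among the 4, had other probe sets that passed, with changes of 0.38 and 0.60 for *Slc1a3* and 0.50 for *Glul*. The summed astrocyte level moved in the same direction as *Ada*, *Slc29a1* and *Pnp*, and its part in their change was not tested.

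Of 10 microglial markers 3 reached 50 and 0 of these passed (limma, with only *Csf1r* lower at an unadjusted p of 0.05), with a summed level of 225.2 to 257.4 on luciferase and 251.7 to 325.4 on untransduced arrays. *Aif1*, *Cx3cr1*, *Itgam*, *C1qa*, *P2ry12*, *Tmem119* and *Fcrls* were under 50 on every array, and *Cd68*, the highest, had a log2 difference of -0.40 (limma, adjusted p = 0.24). Of 8 tested oligodendrocyte markers 1 was higher, 1 was lower and 6 did not pass (summed level 6298 to 7516 against 6603 to 6792). The lower one, *Mag*, was under 50 on all luciferase arrays and was tested only through the untransduced group, where it was high, and *Olig1*, the highest, had a log2 difference of 0.036 (limma, adjusted p = 0.77). Of 6 tested vascular and meningeal markers 1 was higher (*Pdgfrb*, with a change of 0.70, adjusted p = 0.0095 from limma) and 2 were lower (*Dcn*, with a change of -1.0, adjusted p = 0.0022 from limma, and *Col1a2*). Untransduced *Pdgfrb* arrays read 38.0, 47.8 and 62.05, around the level of 50. The other *Pdgfrb* probe set changed by 0.19 and did not pass. *Col1a2* was under 50 on all luciferase arrays and was tested only through the untransduced group, where it was high. The summed level was 610.6 to 815.0 on luciferase and 1045 to 1159 on untransduced arrays, and most of it was *Dcn* (421.5 ± 83.7, SD, n = 4, against 834.7 ± 93.5, SD, n = 3). The endothelial markers *Cldn5*, *Pecam1*, *Cdh5* and *Tek* were under 50 on every array. The part of these cells in the changes of *Ada*, *Slc29a1* and *Pnp* was not tested.

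Over all tested probe sets 5568 passed the adjusted p (66.24% of them higher in luciferase cultures) and 953 also reached 1.5-fold (69.15% higher). The share higher among those that passed was 49.07% with quantile normalization and 37.34% after median centring, and among those at 1.5-fold it was 55.23% and 43.76%. The log2 levels of pairs of arrays had r from 0.993 to 0.996 within luciferase, from 0.988 to 0.995 within untransduced and from 0.977 to 0.985 between the groups. The number of arrays limits the precision of every value.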

How the data were processed

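RNA of 4 luciferase shRNA and 3 untransduced cultures was hybridised to Affymetrix whole-genome mouse arrays. The authors normalized the scans with RMA and deposited intensity values on a linear scale. The RMA version and the arrays it was run on together are not given in the sources used here. The labels name Trizol and the methods a column kit for RNA extraction, and a label of the untransduced samples mentions hairpins in general terms; their treatment field gave the group. In the table the untransduced columns stand 1 row lower than the luciferase columns and were moved up by 1: the log2 group means then had r = 0.995 over 45037 probe sets, against at most 0.421 with other moves from -3 to 3. Of 45101 probe sets, 64 controls and 2441 with _x in the name were left out, and 22748 of the remaining 42596 reached 50 on at least 1 array. The table held 0 columns of other samples.

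These values were taken to log2, and limma 3.58.1 (R 4.3.3) compared luciferase with untransduced arrays through lmFit and eBayes without covariates. P-values were adjusted by Benjamini-Hochberg across the 22748 tested probe sets, and a probe set passed at 0.05. The exact permutation tests were two-sided, over the 35 splits of the arrays. The calculations were tested on simulated data. Gene names come from the array annotation, matched by Entrez ID to RefSeq (20483 of 20536 probe sets with 1 gene). The members and lists were chosen with earlier results of these data known. Named were all tested member probe sets, up to 3 passing genes per purine list with the smallest adjusted p, and the marker of highest level per list. *Gfap*, *Aldh1l1*, *Aqp4*, *Slc1a3*, *Glul*, *Slc17a7*, *Rbfox3*, *Map2*, *Csf1r*, *Mag*, *Pdgfrb*, *Col1a2* and the markers under 50 were added later. So were *Gda*, *Ak4*, the other transporters and the extra labels in the plot of purine genes. Alternatives changed the level filter, the _x filter, the normalization, the variance model, array weights and a pseudocount of 16, or left out 1 array. No coordinates of the files are given, since they name no build; those of the promoters are RefSeq's.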

Additional observations from a re-analysis of the deposited data

Results flagged for a closer look

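Of 30 probe sets named or tested as members or markers, 1 had an array far from the rest of its group of 4 luciferase arrays. In *Nt5c2*, luciferase replicate 1 read 355.4, with its nearest neighbour at 290.9, a gap of 0.93 of the range of the group on the log2 scale, beyond the 95% critical value of Dixon's test. Chance alone flags about 1 in 20 groups. None of the 9 tested probe sets of the purine turnover genes had such an array.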

How the results depend on the processing

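*Ada*, *Slc29a1* and *Pnp* kept their direction and passed under each alternative that tested them, with adjusted p from limma of 1.4e-05 to 7.3e-04, 2.0e-04 to 0.0086 and 7.3e-05 to 0.0046. Where a probe set had to reach 100 on 1 array, *Ada* and *Slc29a1* were kept only through luciferase arrays, where they were higher. The same held for *Ada* at the level of 50 without untransduced replicate 5. Those passes are not read as support. The members that passed in the higher direction numbered 3 in the fit reported, 5 with array weights (with *Ampd2* and the dimmer *Nt5e* probe set added, the latter kept only through luciferase replicate 1 and so not read as a change), and 3 to 4 when 1 array was left out; none passed in the lower direction under any alternative run. With array weights, 6278 of all 22748 tested probe sets passed higher. Members whose groups did not overlap numbered 3, and 3 to 6 when 1 array was left out. There were 5 without luciferase replicate 1 or 4 and 6 without untransduced replicate 7, and fewer arrays overlap less often. The share over all probe sets, 34.8% on all arrays, was not computed with 1 left out. The counts of 5 and 6 therefore carry no reading. The other purine genes were 12 higher and 3 lower. The higher ones numbered 6 without the filter, 7 after quantile normalization, 5 after median centring, 20 with array weights and 4 to 15 when 1 array was left out; the lower ones numbered 1 with at least 50 on all 7 arrays, 5 with median centring, 5 with array weights and 2 to 4 when 1 array was left out. Over all probe sets, 3688 passed higher and 1880 lower. With median centring 2069 and 3472 passed, and with array weights 6278 and 3272. When 1 array was left out 2022 to 4879 passed higher (2206 without untransduced replicate 5, 2022 without replicate 6) and 1158 to 2176 lower (1158 without untransduced replicate 5, 1221 without replicate 6, 1248 and 1251 without luciferase replicates 2 and 3). At 1.5-fold 659 were higher and 294 lower, with 410 and 527 after median centring. The cause of these differences was not tested. The median over tested probe sets was 237.4 to 241.4 on luciferase arrays and 215.5 to 235.1 on untransduced arrays. Before the filter on level the medians lay the other way, at 48.3 to 49.0 and 49.6 to 51.0. The part of these medians in the counts was not tested. No paired analysis was possible because the groups share no replicate numbers. The few arrays and, for *Ada*, *Ampd3* and *Nt5e*, levels close to 50 limit what can be read.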
